A study of Mus musculus with 16 samples.

Results

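The genes examined were those of the cytosolic ribosomal proteins, the structural proteins of the ribosomes that translate nuclear-encoded mRNAs. They were chosen by symbol: Rpl or Rps followed by a number, with an optional letter suffix, together with Rplp0, Rplp1, Rplp2 and Rpsa, leaving out pseudogene symbols and the Rps6k kinases. In the RefSeq mouse gene set 84 symbols match, and 59 of them had a probe set that names that gene alone, out of 19946 symbols measured this way in the series. Another 17 symbols, among them Rpl3, Rpl11, Rpl13a and Rps27, were on probe sets shared by several symbols and were not named, and the other 8 were not analysed here. Of the 59 measured genes, 34 were assigned to the large subunit, 3 to the stalk and 22 to the small subunit. The small subunit genes include Rps4l, which is a transcribed pseudogene in RefSeq but does not carry a pseudogene symbol. Where a gene had several probe sets, that of highest mean over all arrays was used.

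Hearts came from 16 male C57BL/6 mice, with 1 Affymetrix Mouse Gene 1.0 ST array for each mouse and 4 mice in each of 4 groups. The genotypes were control and a conditional Zbtb17 knockout (cKO). Each genotype had either sham surgery or transverse aortic constriction (TAC), in which a narrowed aorta makes the left ventricle pump against raised pressure. Surgery was at 8 to 10 weeks of age and RNA was taken from the heart after 4 weeks. Neither the promoter that drove the deletion nor the alleles carried by the controls are given in the sources used here, and replicates are taken as separate mice from the design text. Values are log2 signals as deposited. A difference is given as the first group minus the second with its standard error (SE), and was called at a Benjamini-Hochberg adjusted p under 0.05 in a limma model of the 4 group means over all 21333 probe sets tested.

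A ribosome joins a large subunit, which forms peptide bonds, to a small subunit, which reads the mRNA. Each holds ribosomal RNA and a fixed set of proteins that are made in about equal amounts, and the mRNAs of most of these proteins begin with a run of pyrimidines that lets mTOR signalling set how well they are translated. In the heart, pressure load enlarges cardiomyocytes, and making ribosomes is part of that growth. Zbtb17 encodes Miz1, a zinc finger transcription factor that activates some genes on its own and represses others together with Myc, itself a known activator of ribosome production.

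The promoters of the genes are shown first, because ribosomal protein genes are known for compact promoters with a start in a pyrimidine-rich stretch. Each line gives, on the gene's strand (GRCm38.p6), the 100 bases before the most upstream start in the RefSeq promoter table, for genes whose RefSeq gene model begins no further upstream, with matches in capitals. Rplp0 and Rpl13 were among the 4 genes of smallest p for cKO minus control after TAC, Rpl37a and Rps25 among the 4 for TAC minus sham over both genotypes, and Rpl3l is the muscle paralog of Rpl3.
Rplp0 (chr5:115559367-115559466, + strand): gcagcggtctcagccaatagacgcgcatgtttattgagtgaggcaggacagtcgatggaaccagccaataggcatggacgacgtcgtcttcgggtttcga
Rpl13 (chr8:123102250-123102349, + strand): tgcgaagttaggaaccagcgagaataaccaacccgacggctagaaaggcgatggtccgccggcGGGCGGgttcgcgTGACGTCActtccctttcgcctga
Rpl37a (chr1:72711160-72711259, + strand): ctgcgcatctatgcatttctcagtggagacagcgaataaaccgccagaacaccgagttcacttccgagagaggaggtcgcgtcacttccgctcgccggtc
Rps25 (chr9:44407614-44407713, + strand): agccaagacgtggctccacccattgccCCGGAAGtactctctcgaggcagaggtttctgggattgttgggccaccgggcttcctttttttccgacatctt
Rpl3l (chr17:24727726-24727825, + strand): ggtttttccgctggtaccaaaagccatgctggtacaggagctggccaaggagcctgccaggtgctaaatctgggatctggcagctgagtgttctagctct

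Exact matches were searched on either strand to the Ets core CCGGAAG, the YY1 core AAGATGGC, the E-box CACGTG bound by Myc family proteins, the GC box GGGCGG and the cyclic AMP response element TGACGTCA. Promoters of 47 of the 59 measured genes were in the RefSeq table, and the gene model of 9 of them begins further upstream than the start used. Over the 250 bases before the start, the Ets core was in 14 of these 47 (29.8%), against 7.1% of 27025 mouse promoters. The cyclic AMP response element was in 4 (8.5%), against 1.6% of all promoters, and the GC box in 21 (44.7%), against 33.0%. The E-box was in 3 (6.4%), against 6.0%, and the YY1 core in 1 (2.1%), against 1.6%. At least 8 pyrimidines in a row lay within 50 bases of the start in 35 of 47 (74.5%), against 35.7%. These are letter matches in fixed windows and describe the promoters only.

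Zbtb17 itself was read first. Its log2 signal was 6.19, 6.50, 6.38 and 6.35 in control sham and 6.49, 6.44, 6.56 and 6.30 in control TAC hearts, replicates 1 to 4. In cKO sham hearts it was 6.51, 6.62, 6.47 and 6.49, and in cKO TAC hearts 6.47, 6.49, 6.52 and 6.52. The cKO arrays were thus not below the control arrays. Averaged over surgery the Zbtb17 difference was 0.11 ± 0.06 (SE; limma, adjusted p = 0.361), and since the deleted part of the gene is not given, Zbtb17 is no check on the labelled genotypes here. Cardiomyocyte markers were high on all arrays (means of 13.01 to 13.24). Of the 10, Myl2, the ventricular regulatory light chain, was called between the genotypes, with a cKO minus control difference of -0.42 ± 0.039 over both surgeries (limma, adjusted p = 0.000232). Its part in the ribosomal protein values was not tested. The atrial marker Myl7 was above 6 on 6 arrays and the stress gene Atf3 above 8 on 3 sham arrays, and results are given without each of those sets in the closing section. Precision is limited by the number of arrays.

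Many ribosomal protein genes were high on the same arrays. Of the 59, all but Rpl39l passed the filter on low signals: Rpl39l had a mean log2 signal of 3.39, below the limit of 4.37, and Rpl12 lay just inside it at 4.38. The Rpl12 probe set lists no RefSeq transcript of the gene. Among probe sets shared by several symbols, the highest that includes Rpl12 had a mean of 12.45. The value of 4.38 is therefore not a measure of how much Rpl12 mRNA the hearts held. Other genes also had a shared probe set well above the one used, such as Rpl30 (6.04 against 10.70) and Rpl34 (7.84 against 11.74). Some had only lower shared ones, such as Rpl13 (8.99 against 6.53). Rpl30 and Rpl34 are named after their values were seen. The mean log2 signal over the 58 genes was 10.05, 9.74, 9.83 and 9.82 in control sham hearts and 10.01, 9.84, 9.91 and 10.00 in control TAC hearts. It was 9.75, 9.78, 9.77 and 9.84 in cKO sham hearts and 9.78, 9.82, 9.83 and 9.84 in cKO TAC hearts. The 3 highest arrays were thus all controls, and every cKO array lay within the range of the control arrays. Control group means were 9.86 ± 0.13 after sham and 9.94 ± 0.08 after TAC, and cKO group means 9.78 ± 0.04 after sham and 9.82 ± 0.03 after TAC (SD, n = 4). The control groups were therefore the more scattered ones.

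Certain arrays stood at the ends of the range for many genes. Control sham replicate 1 had the highest of all 16 values in 24 of the 58 genes and lay above the gene's own mean in 56. Control TAC replicate 1 was highest in 14 genes and above the mean in 54, and control TAC replicate 4 was highest in 12 and above the mean in 53. At the other end, control sham replicate 2 had the lowest value in 16 genes and lay above the mean in only 7. No cKO array was the highest in more than 2 genes. Both subunits followed this order: control sham replicate 1 stood at 9.82 for the large subunit without the stalk, at 10.34 for the small subunit and at 10.37 for the stalk, the highest of the 16 arrays in each.

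**Figure D1:**
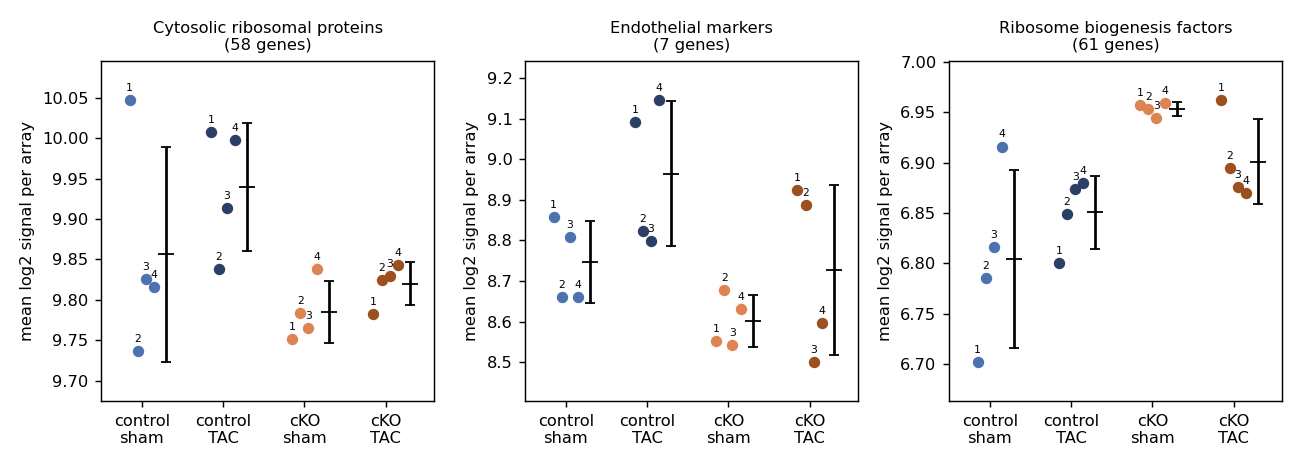
Mean log2 signal per array of the 58 ribosomal protein genes, the 7 endothelial markers and the 61 ribosome biogenesis factors, by group. Each point is 1 mouse with its replicate number, and the bar is the group mean with SD (n = 4). Control sham replicate 1 and control TAC replicates 1 and 4 stand highest for the ribosomal proteins, at 10.05, 10.01 and 10.00.

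The 3 arrays highest for the ribosomal proteins were also the highest control arrays for endothelial markers, but not all of them for macrophage markers. The mean of 7 endothelial markers was 8.86 in control sham replicate 1, 9.09 in control TAC replicate 1 and 9.15 in control TAC replicate 4. It was 8.66 to 8.82 on the other control arrays and 8.50 to 8.92 on the cKO arrays. The match did not extend to the cKO arrays. For endothelial markers, cKO TAC replicates 1 and 2, at 8.92 and 8.89, lay above control sham replicate 1. Their ribosomal protein means were 9.78 and 9.82, against 10.05 on that array. Averaged over surgery, 0 of these 7 markers had a cKO to control difference above 0, with a median of -0.21, and none was called. At an unadjusted limma p under 0.05, 4 of the 7 were lower, against 6.68% of all probe sets. Cardiomyocyte markers were lower on the same 3 control arrays, with means of 13.10, 13.11 and 13.11. They were 13.17 to 13.23 on the other control arrays and 13.01 to 13.24 on the cKO arrays, with cKO TAC replicate 2 the lowest of all. For 8 macrophage markers the means of the same 3 arrays were 7.62, 7.47 and 8.02, with ranges of 6.90 to 7.62 (sham) and 7.39 to 8.02 (TAC) in control hearts and of 6.997 to 7.32 (sham) and 7.27 to 8.06 (TAC) in cKO hearts. Control TAC replicate 1 thus lay below control TAC replicate 2, at 7.55. Of the macrophage markers, 2 of 8 had a cKO to control difference above 0 over both surgeries (median -0.09). Fibroblast markers had the other sign, with 8 of 8 above 0 (median 0.11). None of either list was called or had an unadjusted p under 0.05. Their part in the ribosomal protein values was not tested. In whole hearts, fewer cells of a type and less RNA per cell cannot be told apart.

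**Figure D2:**
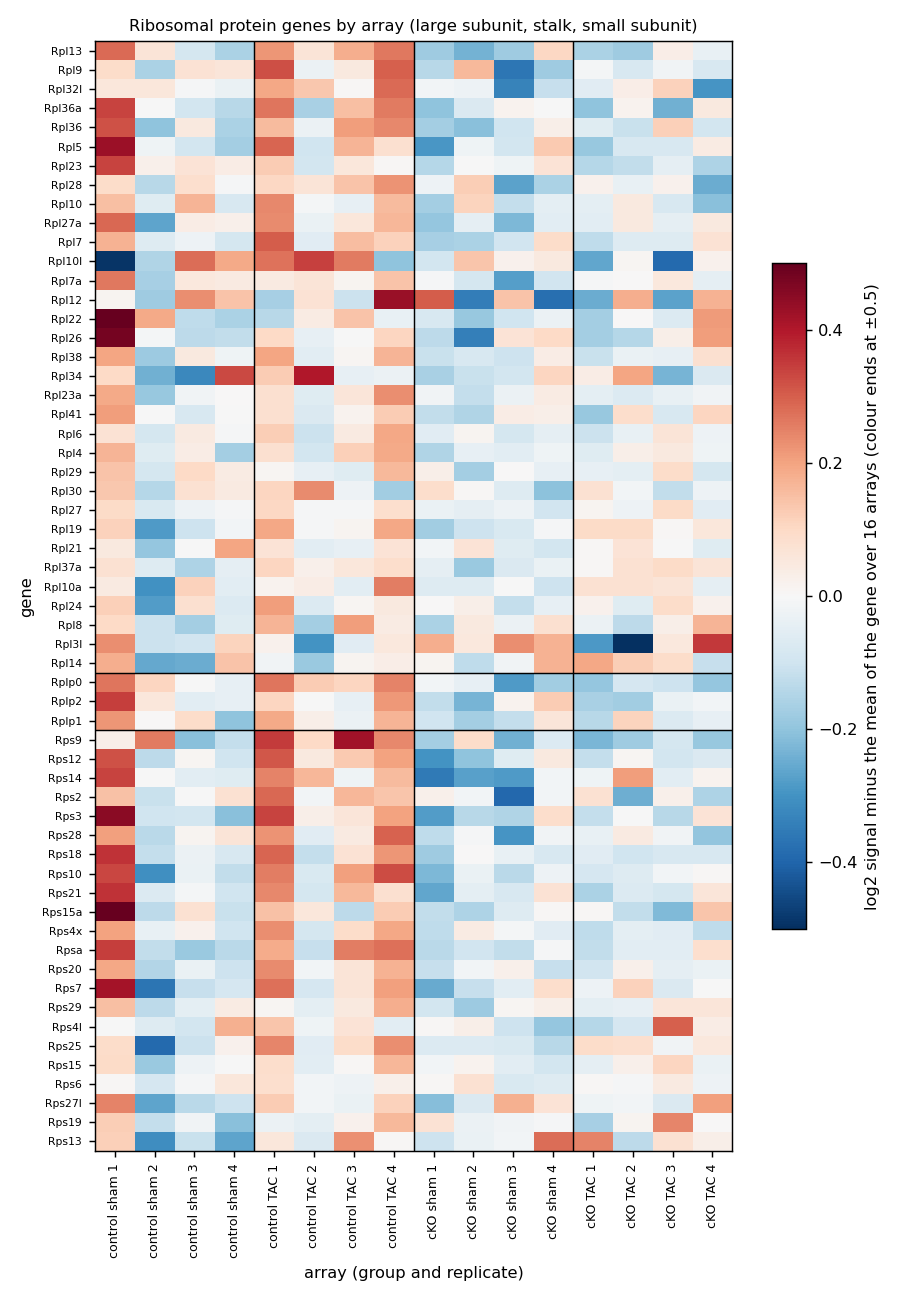
Log2 signal minus the gene's mean over 16 arrays for each of the 58 ribosomal protein genes (rows, by subunit) on each array (columns, by group); the colour scale ends at ±0.5. Control sham replicate 1 is above the mean in 56 of 58 rows and control sham replicate 2 in 7.

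In cKO hearts most ribosomal protein genes had slightly lower signals than in control hearts, and no gene passed the test. Averaged over surgery, 53 of 58 genes had a cKO to control difference below 0, against 50.9% of all probe sets, with a median of -0.11 against -0.004 over all probe sets. None of the 58 was called (limma), against 0.0188% of all probe sets, or 4. At an unadjusted p under 0.05, 14 genes were lower and 0 higher, against 6.68% of all probe sets lower and 8.24% higher. Stalk genes had a median of -0.15 with 0 of 3 above 0, small subunit genes -0.13 with 3 of 22 above 0, and large subunit genes -0.09 with 2 of 33 above 0. The stalk median is the value of Rplp2, whose probe set lists no RefSeq transcript of the gene. The 5 genes above 0 were Rpl14, Rpl3l, Rps13, Rps19 and Rps27l. Without control sham replicate 1, the median was -0.062 and 9 genes were above 0. With each array centred on its own median, it was -0.072 and 14 genes were above 0.

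After sham surgery alone, 49 of 58 genes were below 0, against 49.2% of all probe sets, with a median of -0.08 against 0.002. None was called, against 0.0234% of all probe sets (5), and 2 genes were lower at an unadjusted p under 0.05, against 4.72%. The shift was smallest when a single control array was left out. Without control sham replicate 1, the median was -0.014 and 23 genes were above 0, and with median centring of the arrays it was -0.019 and 21 genes were above 0.

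After TAC, 56 of 58 genes were below 0, against 51.2% of all probe sets, with a median of -0.11 against -0.005. Only Rpl14 was above 0, at 0.11. None was called, against 0.00469% of all probe sets (1). At an unadjusted p under 0.05, 8 genes were lower, against 3.75%: Rplp0, Rps9, Rpl13, Rps12, Rps4x, Rps2, Rpl32l and Rpl28, the last 3 named after their values were seen. The 4 cKO arrays lay below all 4 control arrays in 5 genes, against 1.89% of all probe sets: Rplp0, Rps9, Rpl13, Rps12 and Rpl28. Leaving out any 1 array kept the median between -0.15 and -0.07, with 1 to 8 genes above 0, and without the 6 arrays with Myl7 above 6 it was -0.12 with 10 genes above 0.

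**Figure D3:**
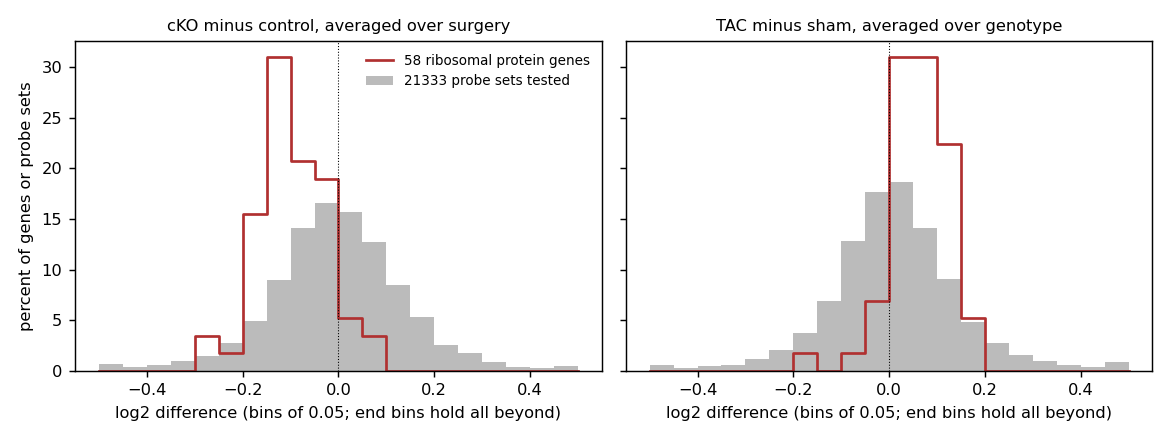
Share of genes or probe sets (percent) by log2 difference in bins of 0.05, for the 58 ribosomal protein genes (red line) and the 21333 probe sets tested (grey). The ribosomal protein genes lie to the left of 0 for cKO minus control (53 of 58 below 0) and to the right for TAC minus sham (52 of 58 above 0), with no single gene called.

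Among the stalk genes, Rplp0 came nearest to the threshold. Rplp0 anchors the stalk to the large subunit, where it holds the acidic proteins Rplp1 and Rplp2 that recruit elongation factors. Its log2 signal was 12.71, 12.55, 12.44 and 12.40 in control sham and 12.71, 12.57, 12.55 and 12.69 in control TAC hearts. In cKO hearts Rplp0 was 12.43, 12.40, 12.16 and 12.27 after sham and 12.25, 12.36, 12.34 and 12.25 after TAC. The groups overlapped after sham and did not after TAC. The Rplp0 difference was -0.33 ± 0.073 after TAC (limma, adjusted p = 0.362), -0.21 ± 0.073 after sham (adjusted p = 0.379) and -0.27 ± 0.052 over both (adjusted p = 0.0942). A second Rplp0 probe set gave -0.28 over both surgeries (adjusted p = 0.0988). Without control sham replicate 4 alone, Rplp0 passed the threshold (-0.29, adjusted p = 0.0325), while over all alternatives its adjusted p ran from 0.0325 to 0.73. Rplp1 (-0.12 ± 0.06, adjusted p = 0.375) and Rplp2 (-0.15 ± 0.073, adjusted p = 0.355) were not called over both surgeries, and the Rplp2 probe set lists no RefSeq transcript of the gene.

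Of the small subunit genes, Rps9 had the largest difference after TAC on the probe sets of highest mean. Rps9 sits where the mRNA enters the small subunit. In control hearts it read 10.09, 10.32, 9.85 and 9.94 after sham and 10.41, 10.16, 10.48 and 10.30 after TAC. In cKO hearts Rps9 was 9.89, 10.15, 9.82 and 9.99 after sham and 9.83, 9.88, 9.97 and 9.87 after TAC. All 4 control TAC arrays were thus above all 4 cKO TAC arrays, while the sham groups overlapped. For Rps9 the cKO to control difference was -0.45 ± 0.10 after TAC (limma, adjusted p = 0.362) and -0.09 ± 0.10 after sham (adjusted p = 0.774). Its interaction, the difference after TAC minus that after sham, was -0.36 ± 0.142 (unadjusted p = 0.0213, adjusted p = 1). The other Rps9 probe set did not show this: it gave -0.038 after TAC, 0.01 after sham and -0.048 for the interaction. Rps2, named after its values were seen, had -0.22 ± 0.099 after TAC on its probe set of highest mean (adjusted p = 0.645), and its other probe sets gave -0.30 ± 0.074 (adjusted p = 0.487) and -0.86 ± 0.248 (adjusted p = 0.563).

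Rpl13, a large subunit protein, and Rps12, a protein of the small subunit's head, also separated the genotypes after TAC. Rpl13 read 9.21, 9.05, 9.17 and 9.25 in control TAC against 8.83, 8.81, 9.02 and 8.95 in cKO TAC hearts. In sham hearts Rpl13 was 9.27, 9.05, 8.90 and 8.83 in controls and 8.81, 8.75, 8.81 and 9.09 in cKO mice, which overlapped. The Rpl13 difference was -0.27 ± 0.099 after TAC (limma, adjusted p = 0.581), and its 9 probe sets ranged from -0.36 to -0.16 there. Rps12 read 10.11, 9.85, 9.93 and 10.00 in control TAC against 9.68, 9.81, 9.71 and 9.73 in cKO TAC hearts. In sham hearts Rps12 was 10.12, 9.67, 9.81 and 9.70 in controls and 9.50, 9.60, 9.74 and 9.85 in cKO mice. Its difference was -0.24 ± 0.098 after TAC (adjusted p = 0.634). The 14 Rps12 probe sets ran from -0.25 to -0.18, several of them with identical values, so they are not separate measurements.

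Rps14 and Rpl23 were among the 4 genes of smallest p for cKO minus control after sham. Rps14 forms part of the platform of the small subunit. It was 10.60, 10.26, 10.21 and 10.20 in control sham and 9.91, 9.99, 9.98 and 10.25 in cKO sham hearts, so that 3 of 4 cKO arrays lay below every control array. After TAC the Rps14 values were 10.51, 10.43, 10.24 and 10.42 in controls and 10.24, 10.47, 10.21 and 10.28 in cKO hearts, which overlapped. The Rps14 difference was -0.28 ± 0.099 after sham (limma, adjusted p = 0.382) and -0.10 ± 0.099 after TAC (adjusted p = 0.862), and its second probe set gave -0.24 and 0.09. Rpl23 lies at the interface of the subunits and is also known to hold nucleophosmin, a coactivator of Miz1, in the nucleolus. Rpl23 read 11.05, 10.74, 10.78 and 10.75 (sham) and 10.84, 10.62, 10.77 and 10.72 (TAC) in control hearts. In cKO hearts Rpl23 was 10.57, 10.71, 10.69 and 10.78 after sham and 10.57, 10.59, 10.67 and 10.56 after TAC, so both pairs of groups overlapped. Its difference was -0.14 ± 0.074 both after sham (adjusted p = 0.508) and after TAC (adjusted p = 0.694), and a second probe set gave -0.19 and -0.26. Without control sham replicate 1, the Rpl23 difference after sham was -0.069. Npm1, the gene of nucleophosmin, had a difference of 0.21 ± 0.082 over both surgeries (adjusted p = 0.26).

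**Figure D4:**
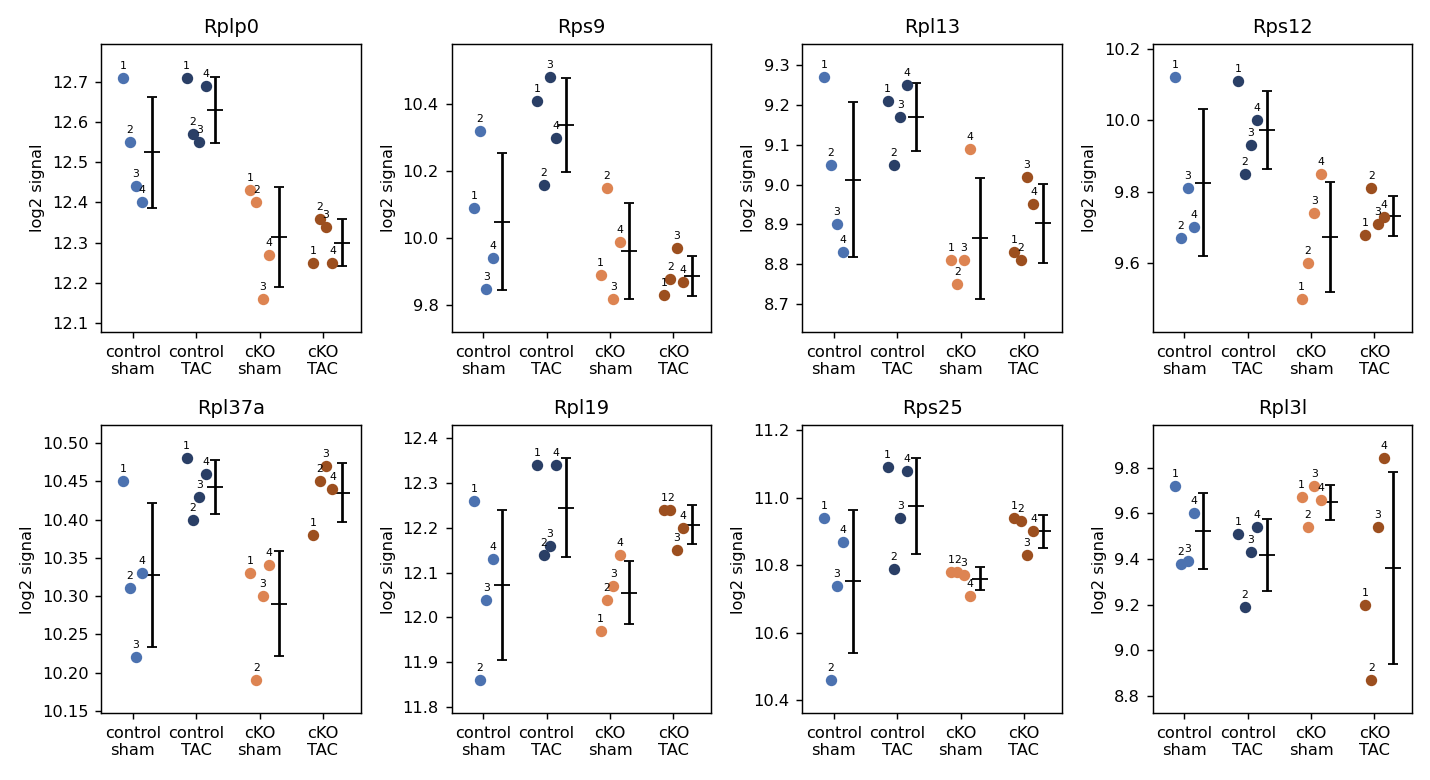
Log2 signal on each array for 8 ribosomal protein genes, by group, each panel with its own axis. Points are single mice with their replicate number, and the bar is the group mean with SD (n = 4). For Rplp0, Rps9, Rpl13 and Rps12 the 4 control TAC values lie above the 4 cKO TAC values, and for Rpl37a, Rpl19 and Rps25 the 4 cKO TAC values lie above the 4 cKO sham values.

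The probe sets of a gene mostly shared the sign of its cKO to control difference. Of 39 genes with more than 1 tested probe set, 35 had all of them below 0 over both surgeries, 1 had all above 0 and 3 were mixed. After TAC, 31 had all below 0, 0 had all above and 8 were mixed. The median range between probe sets of a gene was 0.039 over both surgeries and 0.050 after TAC. Some probe sets of a gene gave identical differences in every comparison, for Rpl23a and Rpl27 as well as Rps12. Probe sets of a gene are therefore not all separate measurements, and their shared sign is not independent support. Ribosomal protein genes have many processed pseudogenes of nearly the same sequence, and probe sets named for a gene can lie on such copies, so the assignment of signal to a single locus is uncertain for all of them.

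**Figure D5:**
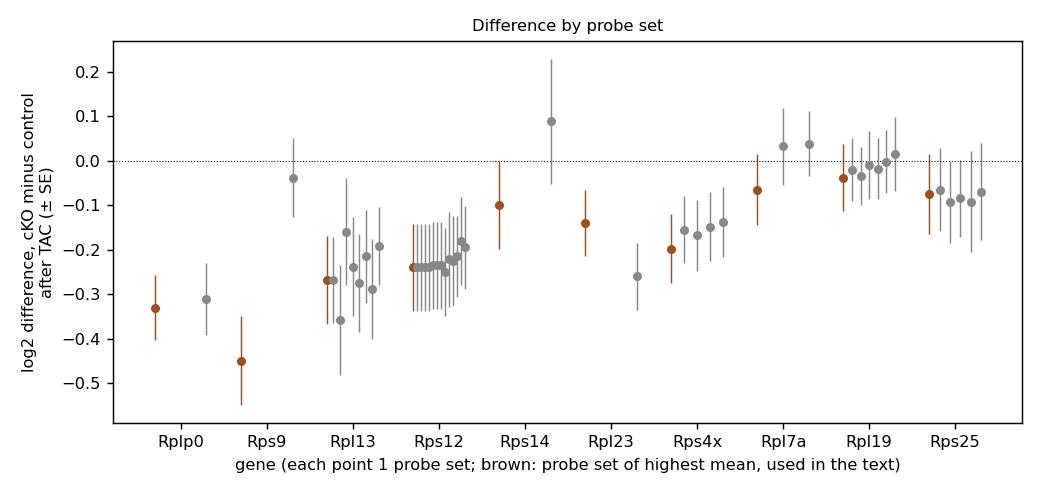
Log2 difference, cKO minus control after TAC (± SE), for every tested probe set of 10 ribosomal protein genes; brown marks the probe set of highest mean. The 2 probe sets of Rplp0 are close to each other (-0.33 and -0.31), while those of Rps9 are apart (-0.45 and -0.038).

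TAC was accompanied by slightly higher signals of most ribosomal protein genes, and again no gene passed the test. Averaged over genotype, 52 of 58 genes had a TAC to sham difference above 0, against 53.7% of all probe sets, with a median of 0.062 against 0.010. None was called by limma, as for all probe sets (0%). At an unadjusted p under 0.05, 4 genes were higher and 0 lower, against 7.24% of all probe sets higher and 4.8% lower. Small subunit genes had a median of 0.074 with 21 of 22 above 0, and large subunit genes without the stalk a median of 0.052 with 29 of 33 above 0. The 5 genes below 0 were Rpl22, Rpl23, Rpl29, Rpl3l and Rplp2. Without control sham replicate 2, the lowest array for these genes, the median was 0.04.

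In control mice 50 of 58 genes were above 0 after TAC, against 54.5% of all probe sets, with a median of 0.084 against 0.015. No ribosomal protein gene and no other probe set was called (0%), and 3 genes were higher at an unadjusted p under 0.05, against 4.9%. The median depended on single sham arrays, being 0.147 without control sham replicate 1 and 0.045 without control sham replicate 2. In cKO mice 46 of 58 genes were above 0, against 51.6%, with a median of 0.036 against 0.007. That median was 0.062 without cKO sham replicate 4, 0.055 without cKO TAC replicate 1, 0.062 without the 6 arrays with Myl7 above 6 and 0.019 with median centring. The TAC comparisons share their arrays with the genotype comparisons above. Here too 0% of probe sets were called, and 2 genes were higher at an unadjusted p under 0.05, against 3.85%. All 4 cKO TAC arrays lay above all 4 cKO sham arrays in 3 genes, Rpl37a, Rpl19 and Rps25, against 2.28% of all probe sets. In control mice the groups overlapped in every gene, against 2.27% of probe sets with all TAC values above all sham values and 1.46% with all below. Endothelial markers were above 0 in 7 of 7 genes over both genotypes (median 0.16), macrophage markers in 8 of 8 (median 0.43) and fibroblast markers in 8 of 8 (median 0.30), none called. At an unadjusted limma p under 0.05, 3, 6 and 5 of these markers were higher, against 7.24% of all probe sets. Their part in the ribosomal protein difference was not tested.

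Rpl37a, a zinc finger protein of the large subunit, had the smallest p over both genotypes. It read 10.45, 10.31, 10.22 and 10.33 in control sham and 10.48, 10.40, 10.43 and 10.46 in control TAC hearts. In cKO hearts Rpl37a was 10.33, 10.19, 10.30 and 10.34 after sham and 10.38, 10.45, 10.47 and 10.44 after TAC. The TAC to sham difference of Rpl37a was 0.12 ± 0.057 in controls (limma, adjusted p = 0.61), 0.14 ± 0.057 in cKO mice (adjusted p = 0.726) and 0.13 ± 0.04 over both (adjusted p = 0.257). Control sham replicate 1 alone kept the control groups from separating.

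Rpl19, a large subunit protein that reaches across to the small subunit, behaved alike on its 7 probe sets, whose differences over both genotypes ran from 0.15 to 0.17. The probe set used read 12.26, 11.86, 12.04 and 12.13 in control sham and 12.34, 12.14, 12.16 and 12.34 in control TAC hearts. In cKO hearts Rpl19 was 11.97, 12.04, 12.07 and 12.14 after sham and 12.24, 12.24, 12.15 and 12.20 after TAC. Its difference was 0.16 ± 0.053 over both genotypes (limma, adjusted p = 0.268). Rps25, a protein of the small subunit's head that some viral mRNAs need for initiation, read 10.94, 10.46, 10.74 and 10.87 in control sham and 11.09, 10.79, 10.94 and 11.08 in control TAC hearts. In cKO hearts Rps25 was 10.78, 10.78, 10.77 and 10.71 after sham and 10.94, 10.93, 10.83 and 10.90 after TAC. The Rps25 difference over both genotypes was 0.18 ± 0.064 (adjusted p = 0.293), and its 6 probe sets ran from 0.12 to 0.19. Cross-genotype differences of these genes were near 0: over both surgeries the cKO to control value was -0.02 ± 0.04 for Rpl37a, -0.03 ± 0.053 for Rpl19 and -0.03 ± 0.064 for Rps25.

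Whether TAC acted differently in the genotypes was read from the interaction. Its median over the 58 genes was -0.049, against -0.013 over all probe sets, with 41 of 58 below 0, against 52.8% of all probe sets. No gene was called, as for all probe sets (0%), and Rps9 was the 1 gene lower at an unadjusted p under 0.05, against 2.05% of all probe sets. The median ran from -0.094 without control sham replicate 1 to -0.002 without control sham replicate 2, and 8 genes were above 0 with median centring against 17 without it. This lean was not particular to the 58 genes. Mitochondrial ribosomal protein genes were above 0 in 10 of 77 (median -0.10) and ribosome biogenesis factors in 9 of 61 (median -0.098). Translation initiation factors were above 0 in 4 of 24 (median -0.076), against 46.5% of all probe sets.

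Paralogs with tissue-restricted expression were read separately. Rpl3l, the copy of Rpl3 used in heart and skeletal muscle, read 9.72, 9.38, 9.39 and 9.60 after sham and 9.51, 9.19, 9.43 and 9.54 after TAC in control hearts. In cKO hearts Rpl3l was 9.67, 9.54, 9.72 and 9.66 after sham and 9.20, 8.87, 9.54 and 9.84 after TAC. Its values spread most in cKO TAC hearts, where the SD was 0.42. The TAC to sham difference of Rpl3l was -0.28 ± 0.157 in cKO mice (limma, adjusted p = 0.753) and -0.10 ± 0.157 in controls (adjusted p = 0.88). It was 0.007 in cKO mice without the 6 arrays with Myl7 above 6, which include the 2 low cKO TAC arrays. Rpl10l and Rpl39l, retained mainly in testis, were among the 3 lowest signals, with means of 5.01 and 3.39, and testis markers lay between 4.89 and 5.12 on all arrays. Rpl10l differed by -0.32 ± 0.159 between cKO and control after TAC (adjusted p = 0.676) and by 0.07 ± 0.159 after sham (adjusted p = 0.897). Its parent gene Rpl10, which completes the peptidyl transferase region late in assembly, differed by -0.13 ± 0.061 over both surgeries (adjusted p = 0.327). Rps27l, a p53-responsive copy of Rps27, differed by 0.01 ± 0.075 (adjusted p = 0.951), and Rps4l, a transcribed pseudogene in RefSeq, by -0.04 ± 0.069 (adjusted p = 0.831). Rps4x, its X-linked parent, was at -0.13 ± 0.055 over both surgeries and -0.20 ± 0.078 after TAC (adjusted p = 0.62).

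The other named members were not called either. Their cKO to control differences over both surgeries lay on both sides of the member median of -0.11. Rpl5, which with Rpl11 binds Mdm2 when ribosome assembly fails, differed by -0.15 ± 0.086 between cKO and control over both surgeries (limma, adjusted p = 0.44). Rps3, at the mRNA entry site, was at -0.17 ± 0.088 (adjusted p = 0.383), and Rpsa, also known as the laminin receptor, at -0.13 ± 0.077 (adjusted p = 0.456). Rpsa was 10.32 in control sham replicate 1 against 9.79 to 9.85 in the other control sham hearts. Rpl36a, near the exit site for tRNA, was at -0.16 ± 0.08, Rpl7a at -0.12 ± 0.056 and Rpl4, which lines the exit tunnel, at -0.07 ± 0.054. Without control sham replicate 1 the differences were -0.081 for Rpl5, -0.096 for Rps3 and -0.038 for Rpl4, and the Rpl5 probe set of lowest mean gave -0.038. Rps19, mutated in Diamond-Blackfan anaemia, was at 0.03 ± 0.063 (adjusted p = 0.866). Rps6, the target of the S6 kinases, had the smallest spread of all 59 genes, with an SD of 0.050 over 16 arrays and a range of 12.90 to 13.07, and a cKO to control difference of -0.01 ± 0.032 (adjusted p = 0.909). Rpl27 (SD 0.063) and Rps15 (SD 0.085) followed. The widest spreads were those of Rpl10l (0.248), Rpl12 (0.246) and Rpl3l (0.244), and the Rpl12 probe set, at 4.38, lists no RefSeq transcript of the gene. Rpl21, at 12.38, Rplp0 and Rps6 had the 3 highest means, which are not compared with those of other genes because probe sets differ in affinity.

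Other genes of ribosome production did not share the sign of the structural proteins in the genotype comparison. Of 61 ribosome biogenesis factors, which process ribosomal RNA and assemble the subunits, 51 had a cKO to control difference above 0 over both surgeries (median 0.11), against 48.7% of all probe sets, and 18 were higher and 1 lower at an unadjusted p under 0.05, against 8.24% and 6.68% of all probe sets. None was called. Gtpbp4, a GTPase of large subunit assembly, was at 0.23 ± 0.061 (limma, adjusted p = 0.152) and Rrp1, a nucleolar processing factor, at 0.28 ± 0.076 (adjusted p = 0.164). After sham, 54 of 61 were above 0 (median 0.15), against 50.1% of all probe sets, and after TAC 40 of 61 (median 0.052), against 47.9%. How far these counts depend on single arrays was not tested. The array means of these factors were 6.70, 6.79, 6.82 and 6.92 in control sham against 6.96, 6.95, 6.94 and 6.96 in cKO sham hearts, so control sham replicate 1 was the lowest of 16 here and the highest for the ribosomal proteins. In TAC hearts they were 6.80, 6.85, 6.87 and 6.88 in controls and 6.96, 6.90, 6.88 and 6.87 in cKO mice.

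Most further lists also had positive medians, smaller ones, and none of their genes was called. Translation initiation factors were above 0 in 18 of 24 genes for cKO minus control over both surgeries (median 0.069), with the helicase Eif4a1 at 0.13 ± 0.041 and Eif2s3x, a subunit of the factor that brings the initiator tRNA, at 0.17 ± 0.052 (limma, adjusted p = 0.195 for both). RNA polymerase I and its factors were above 0 in 12 of 15 (median 0.061), with the initiation factor Rrn3 at 0.20 ± 0.066 (adjusted p = 0.197). Genes of mTOR signalling and TOP mRNA control were above 0 in 15 of 20 (median 0.048), although Mlst8, a subunit of the mTOR complexes, was at -0.20 ± 0.074 (adjusted p = 0.228). Mitochondrial ribosomal protein genes, which build the separate ribosome of the organelle, were above 0 in 60 of 77 (median 0.050), with Mrps15 at 0.17 ± 0.052 (adjusted p = 0.195). Elongation factors and other genes with pyrimidine-rich mRNA starts, which share the translational control of the ribosomal proteins, were above 0 in 10 of 19 (median 0.007). Of the Zbtb17 and Myc network, 7 of 11 were above 0 (median 0.049). Fau, a ribosomal protein outside the symbol rule, was at -0.08 ± 0.055 (adjusted p = 0.49), and the ribosomal protein-like Rpl7l1 at -0.03 ± 0.045 (adjusted p = 0.787).

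For TAC minus sham the lists divided otherwise. Mitochondrial ribosomal protein genes were above 0 in 58 of 77 over both genotypes (median 0.046), with Mrpl43 at 0.20 ± 0.054 (limma, adjusted p = 0.233). Genes of elongation and pyrimidine-rich mRNA starts were above 0 in 13 of 19 (median 0.031), with Eif3l at 0.24 ± 0.061 (adjusted p = 0.233) and the elongation factor Eef1a1 at 0.26 ± 0.09 (adjusted p = 0.293). Ribosome biogenesis factors were above 0 in 30 of 61 (median -0.004) and translation initiation factors in 11 of 24 (median -0.02). RNA polymerase I genes were above 0 in 5 of 15 (median -0.05). Within genotypes the counts differed. Biogenesis factors were above 0 in 42 of 61 in controls (median 0.032) and 20 of 61 in cKO mice (median -0.05). Initiation factors were above 0 in 17 of 24 (median 0.036) and 7 of 24 (median -0.062). For mitochondrial ribosomal protein genes the counts were 69 of 77 (median 0.10) and 42 of 77 (median 0.007). Shares of all probe sets above 0 were 54.5% and 51.6%. None of these genes was called.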

How the data were processed

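Heart RNA of each of 16 mice was run on its own Affymetrix Mouse Gene 1.0 ST array. As deposited, the values are log2 signals for 35556 probe sets. The submitters' processing notes name MAS5 without a version, and no source used here gives the step that scaled the arrays to each other. Array medians lay between 4.85 and 4.97, so the arrays were not fully level at the scale of the member medians. Results with each array centred on its own median are given for several comparisons. A shift shared by all genes cannot be told apart from the scaling of the arrays. Probe sets were named from the platform annotation where it gives 1 symbol (21797), and those with several symbols (1613) were not named. RefSeq genes and promoters are of GRCm38.p6.

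Probe sets with a mean above the 40th percentile (4.37) were tested with limma 3.58.1 in R 4.3.3: 4 group means fitted to 16 arrays (12 residual degrees of freedom), moderated with trend, two-sided p-values adjusted by Benjamini-Hochberg over 21333 probe sets. The 7 comparisons were TAC minus sham and cKO minus control, each within and averaged over the other factor, and the interaction. The rule for named genes takes the 4 members of smallest p in each comparison, members of known role, and the 3 of highest and lowest mean and spread. The planned difference of Rpl3l minus Rpl3 was not run because Rpl3 is only on probe sets with several symbols. The members, lists and tests were chosen with earlier results of these data known. The alternatives were quantile normalization, median centring, filters, no trend, weights per array, a block for the labels' replicate number, other choices of probe set, fewer groups and leaving out arrays. Figures were drawn with matplotlib 3.10.9.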

Additional observations from a re-analysis of the deposited data

Results flagged for a closer look

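For the named members and for the mean of the 58 genes, 124 groups of 4 arrays were checked for an array far from the others. By Dixon's 95% limit for groups of 4, 5 stood out. Chance gives about 1 in 20, and 5 of 124 is not above that rate. Control sham replicate 1 was the high array for Rpl23 (11.05, the others 10.74 to 10.78), Rps14 (10.60, the others 10.20 to 10.26) and Rpsa (10.32, the others 9.79 to 9.85). Control TAC replicate 4 was low for Rpl10l (4.81, the others 5.27 to 5.35), and cKO sham replicate 4 was low for Rps25 (10.71, the others 10.77 to 10.78).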

How the results depend on the processing

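No ribosomal protein gene was called in any comparison under any alternative, except Rplp0 in cKO minus control over both surgeries without control sham replicate 4 (1 gene called), so that the count ran from 0 to 1 over arrays left out. Member medians kept their sign in every comparison and alternative. The count of members above 0 in cKO minus control after sham was 9, and 21 with median centring and 15 with the probe set of lowest mean, and ran from 6 to 23 over arrays left out. After TAC it was 1, and 4 with quantile normalization, 7 with median centring, 6 with array weights, 2 with the mean of probe sets, 4 with the lowest probe set and 10 without the 6 arrays with Myl7 above 6, with 1 to 8 over arrays left out. Over both surgeries it was 5, and 14 with median centring and 9 without the 3 arrays of high Atf3 (above 8), with 3 to 9 over arrays left out. For the interaction it was 17, and 8 with median centring and 26 without those 3 arrays, with 7 to 29 over arrays left out.

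Some genes near 0 changed sign for cKO minus control over both surgeries: Rps6 (0.026 with median centring, 0.003 without the 3 Atf3 arrays, -0.025 to 0.001 over arrays left out), Rps19 (-0.016 with quantile normalization, -0.013 without the 3 Atf3 arrays, -0.009 to 0.059 over arrays left out), Rpl10l (0.034 without the 3 Atf3 arrays), Rps4l (0.013 without the 6 Myl7 arrays), Rpl3l (-0.045 to 0.117 over arrays left out) and Rps27l (-0.020 to 0.065). Rpl3l for TAC minus sham in cKO mice was 0.007 without the 6 Myl7 arrays.

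Calls over all probe sets were few and moved. In cKO minus control after sham there were 5, and 1 with array weights, 0 with the 60th percentile filter, median centring, only probe sets with 1 symbol, without the 3 Atf3 arrays or without the 6 Myl7 arrays, 3 without the trend or with only the groups compared, and 0 to 27 over arrays left out. After TAC there was 1, and 2 with array weights or quantile normalization, 0 without the trend, with only the groups compared, without the 3 Atf3 arrays or without the 6 Myl7 arrays, and 1 to 2 over arrays left out. Over both surgeries there were 4, and 9 with the 60th percentile filter, 2 with median centring or no trend, 1 with no filter or without the 6 Myl7 arrays, 7 with only probe sets with 1 symbol, 8 with quantile normalization and 1 to 81 over arrays left out. TAC minus sham had 0 in each genotype and over both. In controls it was 5 with no filter, 1 with only probe sets with 1 symbol, only the groups compared or without the 3 Atf3 arrays, and 0 to 2 over arrays left out. In cKO mice it was 1 with only the groups compared and 0 to 1 over arrays left out, and over both genotypes 1 with no filter and 0 to 1 over arrays left out.

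Same-numbered arrays did not deviate together (correlations of -0.205 to 0.193), so the numbers were not taken as pairs. With the replicate block 0 probe sets were called in cKO minus control after sham and 2 over both surgeries, and no member's call changed. The Myl7, Atf3 and lowest-probe-set alternatives were chosen after seeing the data, and the cause of these changes was not tested. The fit without the 6 Myl7 arrays leaves 2 arrays in each TAC group.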
